A study of Mus musculus with 8 samples.

Results

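Genes of retinoid metabolism and signalling were followed in the forepaw skin of mice lacking keratin 16. They are Stra6, Crabp2, Lrat, Dhrs9, Aldh1a3, Cyp26b1, Rara, Rarg and Rxra, 9 of 30560 genes measured, taken as the probe sets annotated with these symbols. Each was measured by 1 probe set of its own. Each of 8 C57Bl/6 mice gave forepaw skin RNA at an age of 8 weeks, with 1 Affymetrix array per mouse. In the 4 Krt16 null mice (2 males, 2 females) the Krt16 coding sequence was replaced by bacterial LacZ, in a line made from embryonic stem cells, and their skin was labelled as lesion. The 4 wild-type (WT) littermates (2 males, 2 females) carried the intact gene and their skin was labelled normal. Genotype and lesion therefore cannot be told apart, and a difference given here always sets lesional null skin against normal WT skin.

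Retinol (vitamin A) reaches cells bound to a carrier in blood and can enter through the membrane receptor STRA6. Inside the cell, LRAT stores it as retinyl ester, while short-chain dehydrogenases such as DHRS9 oxidize retinol to retinaldehyde and ALDH1A enzymes oxidize that to retinoic acid. CRABP2 carries retinoic acid to the nuclear receptors RARα and RARγ, which act as pairs with RXRα, and CYP26 enzymes hydroxylate and so inactivate it. In epidermis RARγ and RXRα are the main receptors, and retinoids are known to change keratinocyte growth and differentiation.

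Signals are RMA values (log2), given per mouse or as mean ± SD (n = 4 mice per genotype). A difference is the null mean minus the WT mean, and its standard error (SE) comes from limma with sex as a covariate. A gene was called when its Benjamini-Hochberg adjusted p over all 30560 genes was under 0.05. Signals of different genes are not comparable in level, since each probe set has its own response. Krt16 itself was 8.35 ± 1.07 in WT and 6.90 ± 0.07 in null skin, with all null arrays below all WT arrays (difference -1.45, SE 0.44, limma adjusted p = 0.0615). The groups were only 0.05 apart, between female WT 1 at 7.046 and female null 2 at 6.995. The other WT arrays read 8.20 to 9.66. On all 8 arrays, null ones included, Krt16 lay above the negative control range given below. The difference was called with same-numbered mice as pairs (adjusted p = 0.02844), with array weights (0.0211), with no sex term (0.04419), without genes under the median level (0.04995) and without female WT 1 (-1.98, adjusted p = 0.0007705). It was -0.94 without female WT 2 (adjusted p = 0.05487) and -3.06 with the muscle covariate described below (adjusted p = 0.06429). Probe positions were not used here, so probes outside the replaced sequence would check nothing about the allele. Of 8 keratinocyte markers 7 did not pass the test and Krt15, a basal keratin gene, fell by 0.56, and the mean of these markers lay between 10.6 and 10.9 on every array. The median negative control signal of an array lay between 4.26 and 4.46. Of the 9 retinoid genes, 8 lay above that range on every array, and Lrat did on 6 of 8.

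Among the 9 genes, both that encode synthesis enzymes and the one for the retinoic acid carrier were higher in null lesions, and the one for its breakdown was lower. Aldh1a3, Dhrs9 and Crabp2 rose by 2.31, 1.29 and 0.80 on the log2 scale, and Cyp26b1 and the receptor gene Rara fell by 0.44 and 0.25. Stra6, Lrat, Rarg and Rxra did not pass the test. Of the 9 genes, 3 were thus called higher, against 7.04% of all genes, and 2 lower, against 5.97%. The 2 genotypes were fully separated in 6 of the 9 genes, against 18.8% of all genes: null arrays lay above WT arrays in 4 (10.1% of all genes) and below in 2 (8.76%). The median difference of the 9 genes was 0.25, beside 0.01 over all genes. Many of all genes were dim: 12649 of the 30560 had a mean signal under the negative control range, against 0 of the 9. With genes under the median level left out, 2109 were called higher and 1953 lower. The shares called were therefore larger among brighter genes than over all genes. The 9 genes were chosen with earlier results of these data known, so these shares and medians are no test of the set. Over all genes, 2150 were called higher, but 1304 once male WT 1 was left out, 1194 once male null 2 was and 1224 once female null 1 was. For genes called lower, 1823 became 1064 (male WT 1 left out), 831 (male null 2), 837 (female null 1) and 1099 (female null 2). The count of the 9 genes called higher was 3 or 4 without each array in turn, and that called lower was 1 or 2, by the call of Rara.

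**Figure D1:**
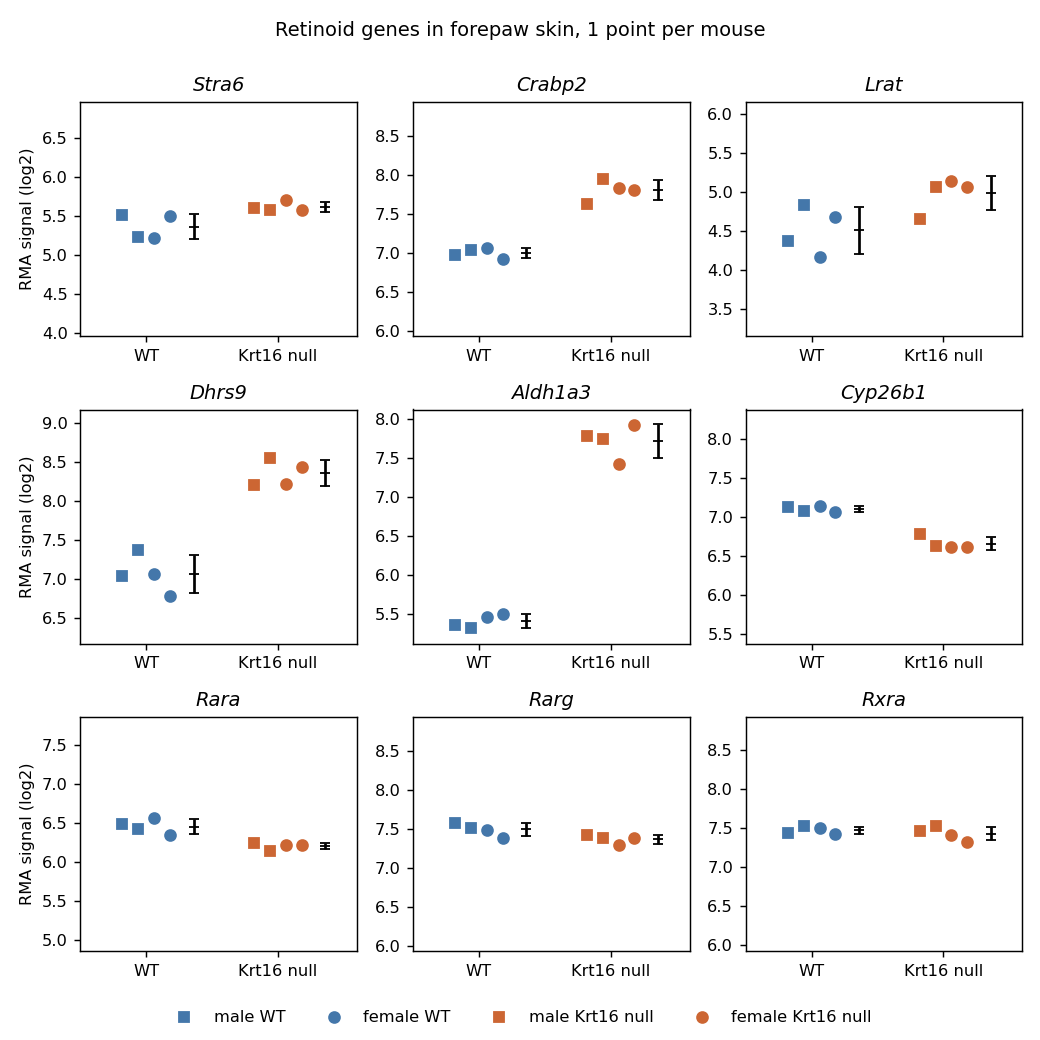
RMA signal (log2) of the 9 retinoid genes in each of 8 mice, with WT on the left and Krt16 null on the right of each panel; squares are males, circles females, and bars show mean ± SD of 4 mice. Every panel spans the same log2 range: Aldh1a3, Dhrs9 and Crabp2 have all null mice above all WT mice, Cyp26b1 and Rara have all null mice below, and Rarg and Rxra overlap.

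Aldh1a3 encodes a retinaldehyde dehydrogenase, the enzyme step that makes retinoic acid. Its signals were 5.36 and 5.31 in WT males, 5.46 and 5.50 in WT females, 7.77 and 7.74 in null males and 7.41 and 7.92 in null females. The lowest null array lay 1.91 above the highest WT array. The mean went from 5.41 ± 0.09 to 7.71 ± 0.21, a difference of 2.31 (SE 0.10, limma adjusted p = 3.964e-06), or 4.94-fold. Its difference was number 51 from the top among all genes. The difference was between 2.23 and 2.43 without each array in turn, and the call held in all 19 alternative fits.

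Dhrs9, which encodes a short-chain dehydrogenase active on retinol and on some steroids, rose as well. WT males gave 7.04 and 7.37 and WT females 7.06 and 6.79, while null males gave 8.21 and 8.55 and null females 8.22 and 8.43. The groups were separated by 0.83. The mean went from 7.06 ± 0.24 to 8.35 ± 0.17 (difference 1.29, SE 0.11, limma adjusted p = 0.0002643), a fold of 2.44. Without each array in turn the difference was between 1.21 and 1.38.

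The sequences upstream of Dhrs9 and Cyp26b1 are shown because these genes changed in opposite directions and stand at opposite ends of the pathway. They come from the RefSeq promoter table (build GRCm38.p6), which held 7 of the 9 genes with 15 annotated starts. Aldh1a3 and Crabp2 were not in it. Dhrs9 is the 250 bases before its start, chr2:69380212-69380461 on the plus strand. Cyp26b1 is chr6:84593909-84594060 on the minus strand, the 152 bases of its window that lie outside the annotated gene. Capitals mark matches on either strand to AGGTCA or AGTTCA (letters of the hexamer that retinoid receptors bind), TGACTCA (the AP-1 site) and TATAAA.
Dhrs9: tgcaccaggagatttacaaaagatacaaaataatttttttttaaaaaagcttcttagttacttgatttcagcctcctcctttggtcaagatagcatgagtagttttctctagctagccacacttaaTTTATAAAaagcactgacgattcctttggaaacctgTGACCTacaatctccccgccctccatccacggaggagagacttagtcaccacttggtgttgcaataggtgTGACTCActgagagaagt
Cyp26b1: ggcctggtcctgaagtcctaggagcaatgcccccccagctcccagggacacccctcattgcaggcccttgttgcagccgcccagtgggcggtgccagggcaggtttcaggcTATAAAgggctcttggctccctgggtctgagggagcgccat
The Dhrs9 window held AGGTCA on the other strand, read here as TGACCT, 88 bases before the start, TGACTCA 18 bases before it, and TATAAA on both strands at overlapping positions, 122 and 124 bases before it. In windows of 250 bases before all 32851 starts of the table, AGGTCA was found in 14.0%, AGTTCA in 11.8%, TGACTCA in 4.46% and TATAAA in 12.4%. In Cyp26b1 the only match was TATAAA, 139 bases before the listed start. Windows of receptor genes, not shown, held AGGTCA too, 225 bases before a start of Rarg and 87 and 48 bases before a start of Rxra. A window of Rara held AGTTCA, 199 bases before the start. These Rxra and Rara windows lie wholly inside the annotated gene, while the Rarg window lies outside it. A direct repeat of such hexamers (AGGTCA or AGTTCA or GGGTCA or GGTTCA, spaced by 1, 2 or 5 bases) was found in 0 of the 15 windows of the retinoid genes and in 0.426% of all windows. These matches describe the letters of the window only.

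Crabp2, the carrier of retinoic acid to its receptors, gave 6.98 and 7.04 in WT males and 7.06 and 6.92 in WT females. Null males gave 7.63 and 7.94, and null females 7.83 and 7.80. All null arrays lay at least 0.57 above all WT arrays. The mean went from 7.0 ± 0.06 to 7.80 ± 0.13 (difference 0.80, SE 0.07, limma adjusted p = 0.0003246), a fold of 1.74.

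Uptake and storage genes differed by less than Aldh1a3, Dhrs9 and Crabp2, and did not pass the test. Stra6, the membrane receptor for the retinol carrier, gave 5.51 and 5.22 in WT males, 5.22 and 5.49 in WT females, 5.60 and 5.58 in null males and 5.70 and 5.57 in null females. The groups were separated by only 0.06, with null above WT. The difference was 0.25 (SE 0.09, limma adjusted p = 0.0908). Lrat, which makes the stored retinyl ester, gave 4.36 and 4.83 in WT males, 4.16 and 4.68 in WT females, 4.65 and 5.06 in null males and 5.14 and 5.06 in null females. Male null 1 lay within the WT range, and part of these signals lay within or below the range of the negative controls. The difference was 0.47 (SE 0.16, limma adjusted p = 0.08832). It passed with same-numbered mice as pairs (adjusted p = 0.04157), without male WT 2 (0.61, adjusted p = 0.03742) and without male null 1 (0.60, adjusted p = 0.04166).

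Cyp26b1, the retinoic acid hydroxylase named above, was tightly grouped in WT skin. WT males gave 7.13 and 7.07, WT females 7.15 and 7.07, null males 6.78 and 6.63, and null females 6.61 and 6.62. The highest null array, male null 1, lay 0.29 below the lowest WT array. The mean went from 7.10 ± 0.04 to 6.66 ± 0.08 (difference -0.44, SE 0.06, limma adjusted p = 0.001734), a fall of 1.36-fold. Without each array in turn it fell by 0.42 to 0.48.

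Receptor genes changed little. Rara, encoding RARα, gave 6.49 and 6.43 in WT males, 6.57 and 6.35 in WT females, 6.25 and 6.15 in null males and 6.22 and 6.23 in null females. The groups did not overlap and were 0.10 apart (difference -0.25, SE 0.06, limma adjusted p = 0.03199). The call was lost without any of 6 arrays (all but male null 1 and female WT 2), with differences of -0.26 to -0.21 and adjusted p of 0.06015 to 0.1075. Rarg, encoding the main epidermal receptor RARγ, had WT signals of 7.57, 7.51, 7.49 and 7.39 and null signals of 7.42, 7.38, 7.29 and 7.38 (males, then females). Male null 1 lay above female WT 2, and the difference of -0.12 (SE 0.05, limma adjusted p = 0.167) did not pass. Rxra, encoding the shared partner RXRα, was 7.47 ± 0.05 in WT and 7.43 ± 0.09 in null skin, with male null 2 at 7.52 and the highest WT array also at 7.52. Its difference was -0.04 (SE 0.06, limma adjusted p = 0.699). A p above the threshold does not show that these levels were alike in both genotypes.

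**Figure D2:**
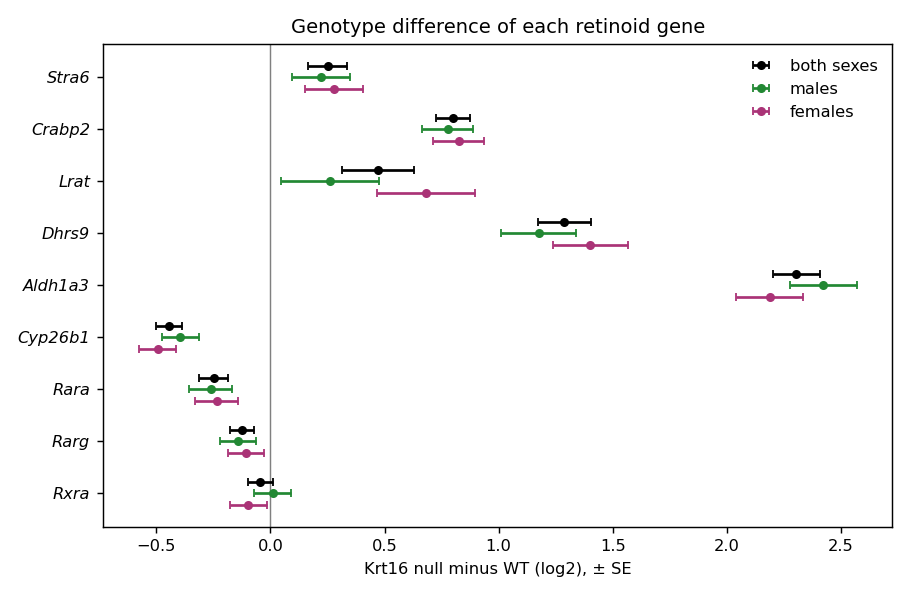
Null minus WT difference (log2) of each retinoid gene with its SE, for both sexes together (black), males (green) and females (purple); each sex has 2 null and 2 WT mice. Aldh1a3, Dhrs9 and Crabp2 lie to the right of 0 and Cyp26b1 and Rara to the left in both sexes.

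The genotype differences were then compared between the sexes. Aldh1a3 rose by 2.42 in males and 2.19 in females, Dhrs9 by 1.17 and 1.401, and Crabp2 by 0.78 and 0.83, each called within each sex (limma adjusted p from 0.0001969 to 0.01733). Cyp26b1 differed by -0.39 in males (adjusted p = 0.05505) and fell by 0.49 in females (adjusted p = 0.02418). Lrat differed by 0.26 in males and 0.68 in females, the widest gap among the 9 genes. The test of the difference between the sexes called 0 of the 9 genes (limma, adjusted p of 0.9735 or above; 0 at an unadjusted p under 0.05), against 0.00654% of all genes. Each sex has 2 mice per genotype.

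The rest of the retinoid pathway was read from 8 lists of 63 genes, 56 of them measured. Of these 7 rose, 14 fell and 35 did not pass the test, with a median difference of -0.06. Over all genes 7.04% were called higher and 5.97% lower, shares to be set beside each list count below. The lists were chosen with earlier results of these data known, so such counts are no test of them. Of 7 carrier and uptake genes 3 rose and 2 fell. Rbp2, an intracellular retinol-binding protein best known from the intestine, rose from 7.02 ± 0.13 to 9.43 ± 0.14 (difference 2.41, SE 0.08, limma adjusted p = 1.077e-06). Fabp5, the fatty acid-binding protein of epidermis that can also carry retinoic acid, rose by 1.00 (adjusted p = 0.0005128). Crabp1, the relative of Crabp2, rose by 0.51 (adjusted p = 0.02301; adjusted p up to 0.07412 without male WT 1, male WT 2 or female null 1). Rbp7, a retinol-binding protein of fat and vessels, fell by 0.56 (adjusted p = 0.01144). The plasma carrier gene Rbp4 fell by 0.35 (adjusted p = 0.04585), a call lost without any of 6 arrays (all but male WT 2 and male null 1, adjusted p 0.06748 to 0.1289).

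The other genes of retinol and retinaldehyde turnover that passed the test all fell, unlike Dhrs9 and Aldh1a3. Of 16 alcohol and short-chain dehydrogenase genes 0 rose and 4 fell, against 7.04% and 5.97% of all genes. An unadjusted p under 0.05 in limma was found for 7 of the 16, against 26.5% of all genes. Of the 16 differences 13 were negative. Adh1, an alcohol dehydrogenase that oxidizes retinol, fell from 7.06 ± 0.08 to 5.97 ± 0.20 (difference -1.09, SE 0.10, limma adjusted p = 0.0002643). Dhrs3, which reduces retinaldehyde back to retinol and is itself induced by retinoic acid, fell by 0.48 (adjusted p = 0.005781). The falls of Rdh13 (-0.21) and Sdr16c6 (-0.42) were less steady. Rdh13 lost its call without female WT 2, either null female, male WT 2 or male null 2. Sdr16c6 lost its call without female WT 2, female null 1 or either null male. Aldh1a1, a relative of Aldh1a3, fell by 0.45 (adjusted p = 0.01426; adjusted p = 0.05116 without female null 1), and Aldh1a2 differed by -0.03. Bco1, the enzyme that cleaves β-carotene to retinaldehyde, and Awat2, a wax and retinyl ester synthase, both fell by 0.33 (adjusted p = 0.01489 and 0.03071). The mean Bco1 signal lay under or within the negative control range in both genotypes, so the size of its fall is not exact. The null mean of Awat2, 4.39, lay within it too. Awat2 lost its call without any array but female WT 1 (adjusted p 0.06093 to 0.09077).

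Neither of the other CYP26 genes passed: Cyp26a1 differed by 0.09 and Cyp26c1 by 0.00 (limma adjusted p = 0.4647 and 0.9983). Rarb, a receptor gene induced by retinoic acid in many cells, was 4.34 ± 0.10 in WT and 4.20 ± 0.13 in null skin (difference -0.15, adjusted p = 0.2142), within or below the negative control range. Of 9 coregulator genes 2 rose and 2 fell, each by about 0.30 or less. Nrip1, a ligand-dependent corepressor gene, rose by 0.27, and the corepressor complex gene Tbl1xr1 by 0.23. The coactivator genes Ncoa3 and Crebbp fell by 0.30 and 0.22. Each of these 4 calls (limma adjusted p 0.01488 to 0.0279) was lost if male WT 1, male null 2 or any of 1 to 4 further arrays was left out, with adjusted p of 0.05073 to 0.1042.

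Genes known to respond to retinoids in skin or other epithelia did not move as a block. Of 11 measured 2 rose and 3 fell. Hbegf, an EGFR ligand gene induced by retinoids in epidermis, rose from 5.93 ± 0.26 to 7.73 ± 0.24 (difference 1.80, SE 0.15, limma adjusted p = 0.0001824), and the keratin gene Krt4 rose by 0.61 (adjusted p = 0.004808). The WT mean of Krt4, 4.39, lay within the negative control range, which makes 0.61 inexact. Rarres1, named for its induction by retinoids, fell by 1.10 (adjusted p = 0.00308). Its null and WT arrays overlapped only across the sexes, and within each sex null lay below WT. The difference was -1.41 in males and -0.79 in females (limma adjusted p = 0.01119 and 0.06272). The suprabasal keratin gene Krt2, which retinoids lower, fell by 0.60 (adjusted p = 0.000929), and the envelope gene Lor by 0.35 (adjusted p = 0.0347; adjusted p up to 0.1145 without any 1 of the 4 arrays numbered 2). Krt13 and Krt19, keratins of wet epithelia, differed by 0.04 and 0.10 and did not pass. Of the 21 called genes of these lists, 10 were called without each array in turn and 11 were not. The count called higher was 4 without male WT 1, and the count called lower was 8 without female WT 2, 8 without female null 1, 9 without female null 2 and 7 without male null 2.

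**Figure D3:**
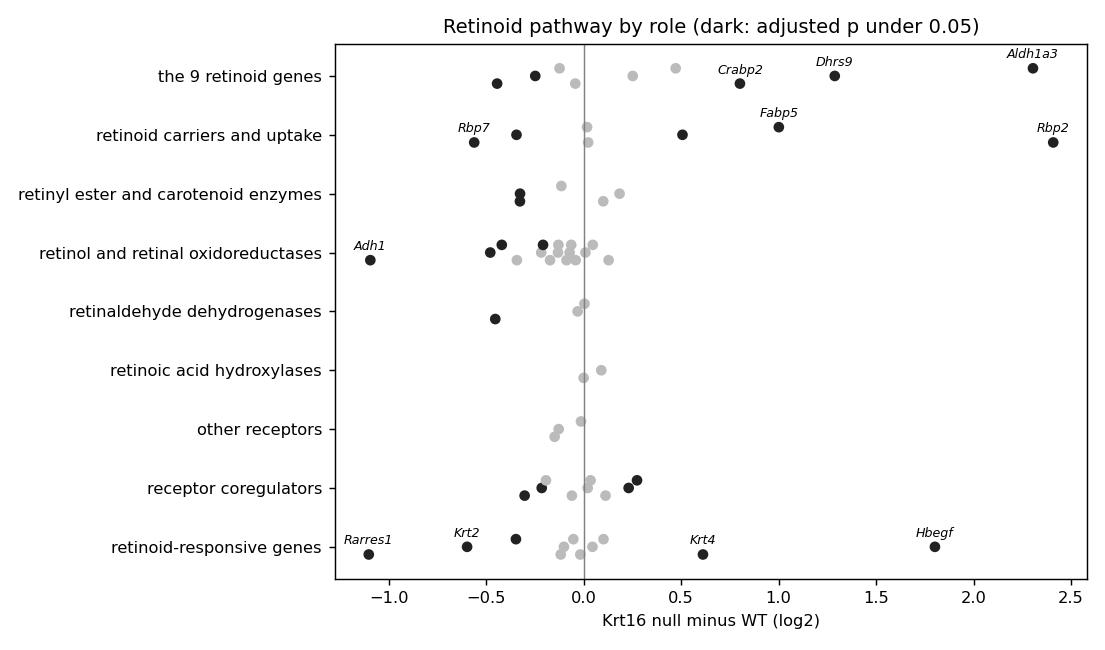
Null minus WT difference (log2) of the 9 retinoid genes and of 56 other retinoid genes by role, 1 point per gene; dark points have a limma adjusted p under 0.05, grey points do not. Aldh1a3 and Rbp2 lie farthest to the right, and the dehydrogenase genes lie mostly left of 0.

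Genes with the closest profiles were sought for the called genes of largest difference, as the smallest root mean square difference between log2 profiles centred on their mean over the 8 arrays. For Aldh1a3 these were Pla2g4d, an epidermal phospholipase gene (0.21), the retinol carrier gene Rbp2 (0.22) and Adm, encoding the peptide adrenomedullin (0.24), which differed by 2.31, 2.41 and 2.41 between genotypes. Dhrs9 was closest to the glutamate transporter gene Slc1a1 (0.14), Nucb2 (0.14) and the cornified envelope gene Sprr1b (0.15), with differences of 1.36, 1.13 and 1.13. Pla2g4d (4.34) and Slc1a1 (4.31) had WT means within the negative control range, so their differences and their closeness rest in part on values near background. Crabp2 was closest to the necroptosis gene Mlkl (0.06), the glycerophosphate dehydrogenase gene Gpd2 (0.06) and Lrp8 (0.08), with differences of 0.81, 0.75 and 0.80. All 8 arrays enter this measure, so the genotype difference itself is part of it.

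**Figure D4:**
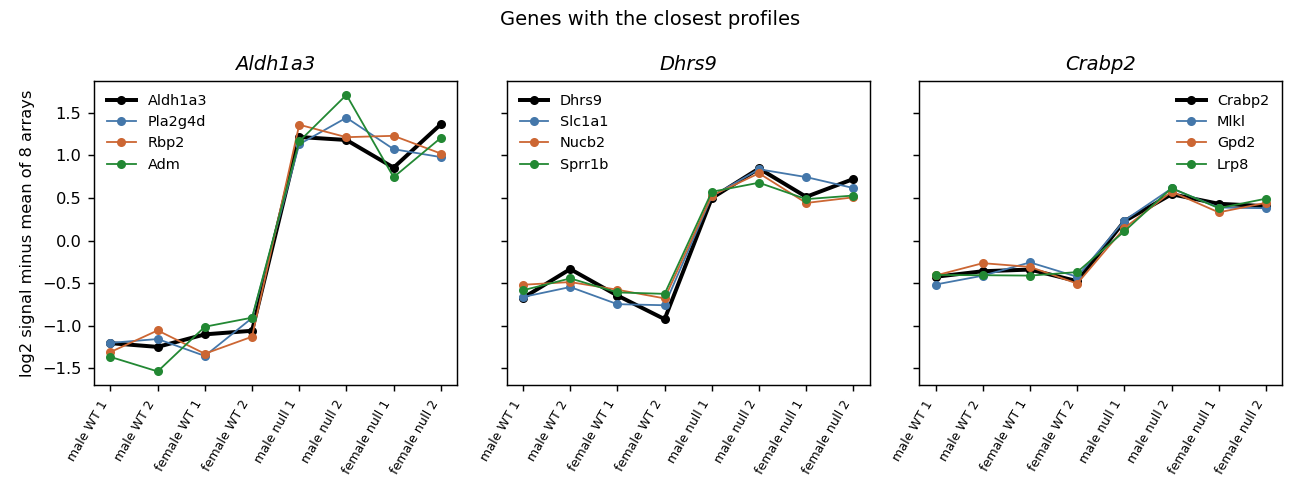
Log2 signal minus the mean of 8 arrays for Aldh1a3, Dhrs9 and Crabp2 (black) and the 3 genes closest to each (coloured), with WT arrays on the left and null arrays on the right. The lines step up between the WT and the null arrays by about the same amount within each panel.

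Forepaw skin holds several tissues, and in whole skin fewer cells of a type and less RNA per cell cannot be told apart. Of 13 skeletal muscle markers 11 fell and 0 rose (median -0.90), and their mean was 9.23 to 10.01 in WT and 8.40 to 9.001 in null arrays; 6 of the 11 were called without each array in turn. Of 7 sebaceous gland markers 6 fell and 0 rose (median -0.58), with means of 7.63 to 8.22 in WT and 7.21 to 7.39 in null arrays; 3 of the 6 were called without each array in turn. Mc5r, the melanocortin receptor gene of sebocytes, fell by 0.96. Of 5 melanocyte markers 5 rose (median 0.85), led by the pigment enzyme gene Tyrp1 (1.75), with means of 3.76 to 4.01 in WT and 4.47 to 5.19 in null arrays. The WT means of Tyrp1 (4.31) and Dct (4.40) lay within the negative control range, and Mlana and Tyr lay at or below it on every array, so the sizes of these rises are not exact. Of 5 Langerhans and dendritic cell markers 4 rose, Itgax by 0.79 from a WT mean of 4.27 within the negative control range, and Flt3 at or below that range on every array. Of 5 endothelial markers 2 rose, Vwf by 0.27 (adjusted p = 0.05621 without male null 2). Of 8 macrophage markers 2 fell, Cd163 by 0.97 (adjusted p = 0.0594 without female null 1). Of 5 fibroblast markers 1 fell, Dcn by 0.83, a call lost without any of 6 arrays (all but male WT 2 and male null 1, adjusted p 0.07105 to 0.116). The calls of C1qc (macrophage), Pecam1 (endothelial), Cd207 and Flt3 (Langerhans and dendritic) and Mlana and Tyr (melanocyte) were lost without male null 2, without female WT 2 and without 2 to 5 further arrays. With same-numbered mice as pairs, Cd207 and Flt3 did not pass (limma adjusted p = 0.0503 and 0.06444), while the macrophage genes C1qa and C1qb (0.02364 and 0.03347) and the muscle gene Myh4 (0.003361) were called lower. Of 8 adipocyte markers 1 fell, of 3 Schwann cell markers Pmp22 alone fell, by 0.47, and of 6 sweat gland markers 0 passed (2 had an unadjusted p under 0.05 in limma, against 26.5% of all genes).

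With the mean of the muscle markers as a covariate, which shares 74.2% of the genotype term's variance once sex is included, Aldh1a3 differed by 2.47 (limma adjusted p = 0.0009817), Dhrs9 by 1.23 (adjusted p = 0.05275) and Crabp2 by 0.74 (adjusted p = 0.06306). The SE of Dhrs9 went from 0.11 to 0.23 and that of Crabp2 from 0.07 to 0.15. In the same fit Cyp26b1 differed by -0.30 (adjusted p = 0.2146), Rara by -0.07 (adjusted p = 0.8867) and Lrat by -0.26 (adjusted p = 0.5297), a turned sign. Rbp4 turned sign too, to 0.04 (adjusted p = 0.9583), the only one of the 21 called genes of the other retinoid lists to do so. Rbp2 differed by 2.28 and Adh1 by -1.02 there (adjusted p = 0.0007112 and 0.05625). The part of muscle beyond this fit, and of sebaceous, melanocyte, dendritic and endothelial cells, in these results was not tested.

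**Figure D5:**
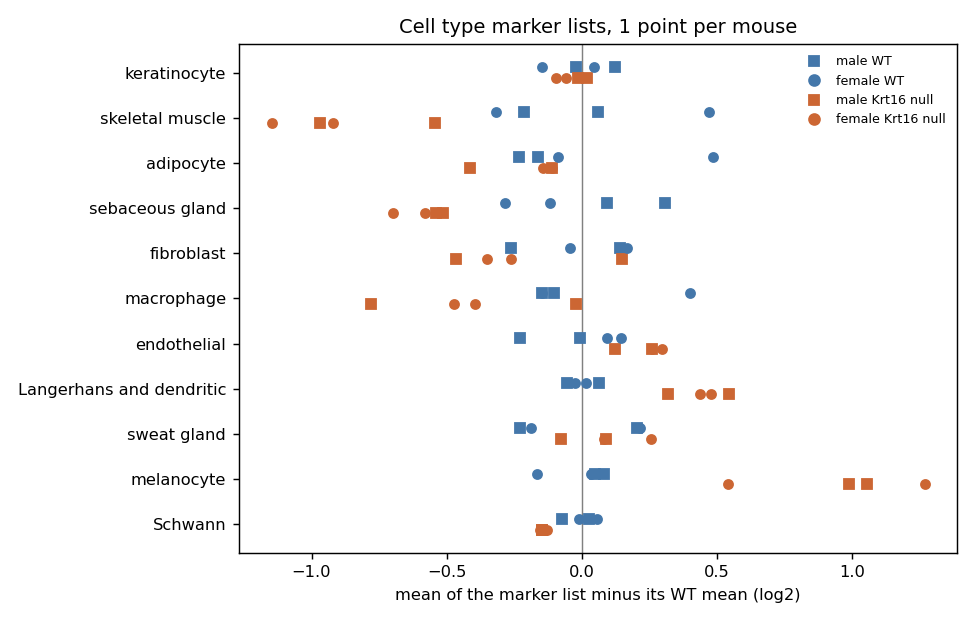
Mean log2 signal of each cell type marker list per mouse, minus the WT mean of that list; blue is WT and orange Krt16 null, squares are males and circles females. The list means of muscle and sebaceous gland markers lie lower in every null mouse than in any WT mouse, as does that of Schwann cell markers, of which only Pmp22 was called; those of melanocyte and of Langerhans and dendritic markers lie higher, and that of keratinocyte markers overlaps.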

How the data were processed

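Forepaw skin RNA of 8 mice was labelled with the WT PLUS kit, per the labels' protocols, and measured on 1 array each. The deposited values are log2 signals per probe set that the authors made with Partek and RMA, per the submitters' processing notes, with settings and genome build not given in the sources used here. RMA compresses large folds. Of 72688 probe sets, 6732 controls were left out. The array's annotation, with symbols updated through a RefSeq table, gave 30560 genes; where several probe sets shared a gene, that of highest mean signal was kept. No filter on dim genes was applied.

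limma 3.58.1 in R 4.3.3 (lmFit and trended eBayes) tested genotype with sex as covariate, leaving 5 residual degrees of freedom, and effects by sex came from 4 group means. The genotype test was tried on simulated data with independent noise for each gene and array. Such data hold no shared array, pair or tissue effects. The number of arrays limits the precision; array medians were 4.04 to 4.09. Mice are the replicates. Same-numbered mice of a sex were checked as pairs: their deviations from the group means correlated across genes at 0.318 (males) and 0.116 (females), so the pair was used as a block in 1 alternative. Further alternatives changed the sex term, normalization, dim-gene filter, probe set choice, variance prior and array weights, added a muscle covariate, or left out each array.

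The 9 genes and all lists were chosen with earlier results of these data known. Named genes are the 9, Krt16, up to 2 largest called rises and falls per retinoid list (or the smallest p), the 3 closest profiles of 3 genes (pseudogenes, provisional symbols, small RNAs of the nucleolus, microRNAs and odorant or vomeronasal receptors passed over), and the marker of largest difference per list; Crabp1, Aldh1a2, Cyp26c1, Krt13, Krt19, Lor and the markers C1qa, C1qb, C1qc, Pecam1, Cd207, Flt3, Mlana, Tyr and Dct were added after their values were seen. Rdh13 and Sdr16c6 were likewise added after their values were seen. Of the retinoid lists, 7 genes were not analysed here.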

Additional observations from a re-analysis of the deposited data

Results flagged for a closer look

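Among the 9 retinoid genes and Krt16, each with 4 WT and 4 null arrays (20 groups), 2 groups had an array far from the other 3 for the range of the group; chance gives about 1 in 20. Lrat in null skin had male null 1 at 4.652, below the other null arrays. Cyp26b1 in null skin had male null 1 at 6.782, above the other null arrays, so this array lay nearest the WT level for both genes.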

How the results depend on the processing

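The called directions of Aldh1a3, Dhrs9, Crabp2, Cyp26b1 and Rara held in all 19 alternative fits. With the muscle covariate, 1 of the 9 genes was called higher and 0 lower (limma; Aldh1a3 was the one), 2 of the other retinoid genes were higher and 1 lower, and over all genes 191 were higher and 77 lower; Lrat turned to -0.26. The covariate overlaps with genotype. Each of the 9 genes had a wider SE with it except Lrat, whose SE went from 0.16 to 0.15. Without each array in turn, the genes called were 3 to 4 higher and 1 to 2 lower of the 9, 4 to 7 higher and 7 to 14 lower of the other retinoid genes, and 1194 to 2277 higher and 831 to 1850 lower of all genes. With same-numbered mice as pairs (replicate block), 4 of the 9 genes were higher and 2 lower, 7 and 15 of the other retinoid genes, and 2527 and 1995 of all genes; the block changed no call of the 9 genes other than that of Lrat. Lrat was also called with array weights (0.49, adjusted p = 0.04894). Lrat, Rarb, Cyp26a1, Bco1, Awat2, Krt4, Pla2g4d, Slc1a1 and, among the markers, Itgax, Flt3, Tyrp1, Dct, Mlana and Tyr have means near or below the negative controls in at least 1 genotype, which limits the exactness of their differences. Lrat had no value in the fit without genes under the median level.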
